A study of Mus musculus with 13 samples.

Results

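Oxidative phosphorylation subunit genes encode the protein subunits of the 4 respiratory chain complexes and of the ATP synthase in the inner mitochondrial membrane. The chain passes electrons from NADH and succinate to oxygen and pumps protons, and the ATP synthase uses the proton gradient to make ATP. Most subunits are encoded in the nucleus and imported, whereas a small core is transcribed from the mitochondrial genome as long precursors that are cut into single mRNAs, so the complexes need both genomes. Complex II is built from nuclear genes only. mTORC1, the kinase complex that loses its essential subunit when Rptor is deleted, is known as a regulator of mitochondrial gene expression in other cells.

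The members were the protein-coding genes whose symbols name subunits of complex I (Nduf), complex II (Sdh), complex III (Uqcr), complex IV (Cox4 to Cox8), the ATP synthase (Atp5), or their mitochondrially encoded partners, with 50 or more counts in at least 2 of 13 libraries. This gave 91 of the 40787 genes of the table, and 12851 genes of any kind passed the same count filter. Of the members, 78 were nuclear and 13 mitochondrial. Complex I had 35 nuclear and 7 mitochondrial members, complex II 4 nuclear members, complex III 8 and 1, complex IV 14 and 3, and the ATP synthase 17 and 2. Ndufa4 and its paralog Ndufa4l2 were counted with complex IV, where the Ndufa4 protein is found. The Atp5 symbols include Atp5s, a coupling factor that is not a core subunit. A further 6 protein-coding genes matched by symbol but lay under the filter. These were the tissue-restricted isoforms Cox4i2, Cox6a2, Cox6b2, Cox7b2, Cox8b, and Cox8c, whose counts were at most 54 in any library. Cox7b2 and Cox8c had 0 counts in all 13 libraries.

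RNA was sequenced from C57BL/6 mouse sciatic nerves taken 5 days post crush (dpc), from the injured side and the uninjured contralateral side. Controls carried floxed Rptor alleles without Cre and gave 3 injured and 3 contralateral libraries, and RaptorKO mice carried the same alleles with a tamoxifen-inducible Cre transgene that is active in Schwann cells (SCs), and gave 3 injured and 4 contralateral libraries. Both genotypes received tamoxifen at 2 months of age and were operated 2 months after the last injection. Whole nerve without epineurium was used, so the libraries mix SCs with the other cells of the nerve, and fewer cells of a type cannot be told apart from less RNA per cell.

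Library totals ranged from 8200458 to 13581775 counts. Levels are given as counts per 1000000 (CPM) after TMM scaling, and a gene was called at an adjusted p below 0.05 in the quasi-likelihood test of edgeR and a fold change above 1.2. Differences are log2 fold changes with their standard error (SE). Rptor was lower in RaptorKO than in control nerves, with a log2 fold change of -0.998 in contralateral nerves (SE 0.118, edgeR adjusted p = 0.0005) and of -0.69 in injured nerves (SE 0.15, edgeR adjusted p = 0.0167). The call in injured nerves was lost in 3 of 13 alternatives. The 10 SC markers summed to between 73379 and 95386 CPM in contralateral nerves and to between 2702 and 4469 CPM in injured nerves, and the 10 macrophage markers to between 190 and 402 CPM and between 1906 and 3885 CPM. Both control libraries numbered 3 held Xist at 1416 and 1466 CPM and Ddx3y at no more than 0.196 CPM, whereas the other libraries held Xist at no more than 2.19 CPM. The libraries of a group came from different mice. The crushed and the contralateral nerve with the same number were taken to come from the same mouse.

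The 13 mitochondrial members held far more of each library than the 78 nuclear members. They took 7.49% to 14.1% of all counts, against 0.423% to 0.592% for the nuclear members. Compared per length of annotated exon, mt-Atp6, mt-Co1, mt-Co2, and mt-Cytb were the most abundant members in control contralateral nerves, at 17083, 16183, 13523, and 12056 CPM per kilobase (authors' counts divided by GENCODE exon length). The most abundant nuclear members on this scale were Cox8a at 186, Cox6a1 at 156, and Cox6b1 at 123 CPM per kilobase, all small subunits of complex IV. mt-Nd6, the only mitochondrial member on the minus strand, stood at 19.7 CPM per kilobase in the same nerves, against 8250 CPM per kilobase for mt-Nd1. mt-Atp8 overlaps mt-Atp6 and mt-Nd4l overlaps mt-Nd4, so their counts share reads or depend on how RSEM divided them.

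**Figure D1:**
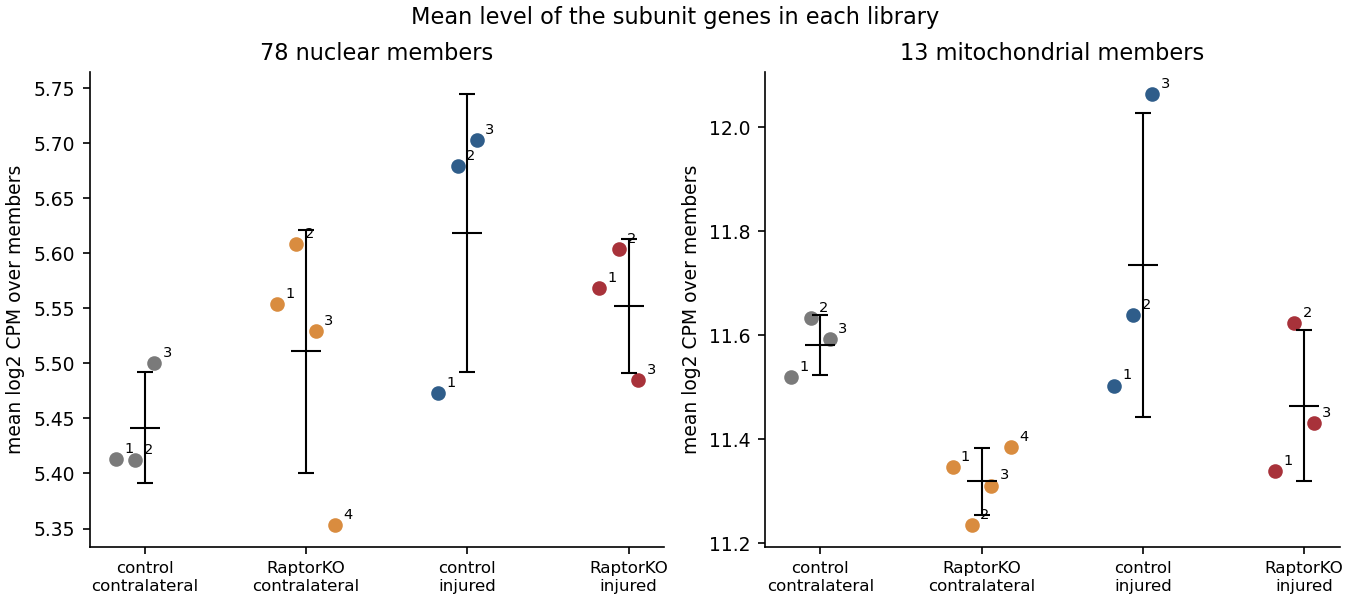
Mean log2 CPM over the 78 nuclear members (left) and the 13 mitochondrial members (right) in each of 13 libraries, numbered by replicate, with the mean and SD of each group. For the mitochondrial members RaptorKO contralateral libraries lie between 11.235 and 11.385, below the control contralateral libraries at 11.519 to 11.633, and control injured 3 is the highest at 12.064.

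The genotypes were compared first in the contralateral nerves, which were uninjured but came from mice with a crush on the other side. Here the medians of the nuclear and the mitochondrial members lay on opposite sides of 0. Of 77 nuclear members tested, 5 rose in RaptorKO contralateral nerves and 0 fell, which is 6.49% against 4.49% of all 11878 genes tested that were called higher. Of the 13 mitochondrial members, 4 fell and 0 rose, against 5.68% of all genes tested that were called lower. By an unadjusted p below 0.05, 16 of the 77 nuclear and 8 of the 13 mitochondrial members passed. Of all 11878 genes tested, 2955 did. The estimate was above 0 for 58 of the 77 nuclear members and below 0 for all 13 mitochondrial members, with medians of 0.11 and -0.24 on the log2 scale beside 0.01 over all genes tested. Mitochondrial members come from shared precursors, so their 13 estimates are not independent of each other.

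Cox7a2l, a relative of the complex IV subunit Cox7a2 that takes part in joining complexes III and IV, had the largest difference among the members. It stood at 158, 148, and 149 CPM in the 3 control contralateral libraries and at 272, 284, 270, and 290 CPM in the 4 RaptorKO contralateral libraries. Every RaptorKO library lay above every control library. The log2 fold change was 0.90 (SE 0.074, edgeR adjusted p = 7.69e-05), a 1.87-fold difference. It was called in all 14 alternatives, with values from 0.88 to 0.93. Cox7a2l (ENSMUSG00000024248) lies on the minus strand of chromosome 17 from 83501918 to 83517330 in GRCm38 (GENCODE M21).

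The other 4 called nuclear members belong to complexes III and IV and the ATP synthase. Uqcrh, the hinge subunit of complex III, stood at 113, 108, and 118 CPM in the control libraries, and the RaptorKO libraries held 147, 152, 142, and 144 CPM. Cox4i1, the ubiquitous isoform of the largest nuclear complex IV subunit, stood at 138, 114, and 126.3 CPM in the control libraries, and the RaptorKO libraries held 163, 170, 156, and 153 CPM. Neither pair of groups overlapped. The log2 fold changes were 0.40 for Uqcrh (SE 0.071, adjusted p = 0.00661) and 0.36 for Cox4i1 (SE 0.084, edgeR adjusted p = 0.0223). Atp5a1, the catalytic-head alpha subunit of the ATP synthase, rose by 0.38 (adjusted p = 0.0327) and Cox8a, a small complex IV subunit, by 0.32 (adjusted p = 0.0316, both by the same test). Atp5b, the beta subunit that forms the catalytic sites, had 436 ± 21.4 CPM in controls (SD, n = 3) and 508 ± 29.1 CPM in RaptorKOs (SD, n = 4) and did not pass (log2 fold change 0.24, adjusted p = 0.0779, edgeR). All 13 tested nuclear members of complex IV had estimates above 0, with a median of 0.24, whereas the 35 nuclear members of complex I had a median of 0.05 and none was called.

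The number of nuclear members called higher depended on single libraries. It was 1 without control contralateral 2, 3 without control contralateral 1 or control contralateral 3, 2 without RaptorKO contralateral 1 or RaptorKO contralateral 2, and 8 without RaptorKO contralateral 4. Uqcrh lost its call without control contralateral 2, Cox4i1 without any one of 4 libraries, and Atp5a1 and Cox8a each without any one of 5. In the same contralateral nerves, markers of other cells differed by genotype. Of the 9 macrophage markers tested, 6 were called higher in RaptorKO nerves, with sums of 313 to 402 CPM against 190 to 215 CPM in controls and none of the 10 markers at 0. The 6 fibroblast and perineurial markers summed to 6527 to 9326 CPM against 4340 to 5013 CPM, with 3 called higher, and 3 of 10 SC markers were called lower. Their part in the differences of the members was not tested.

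The promoters of nuclear subunit genes are known for sites of NRF1, ETS factors such as GABPA, and YY1. A window from 250 bases before to 50 bases after the start was found in RefSeq (GRCm38.p6) for 65 of the 78 nuclear members, in 70 windows. The letters searched on both strands were GCGCATGCG for NRF1, CCGGAAG for ETS, TCAAGGTCA for the ERR half-site, AAGATGGCG for YY1, and CACGTG for the E-box, and none of these contains another. NRF1 letters were in 11.4% of the members' windows and 1.75% of all 32851 windows, ETS letters in 22.9% and 8.86%, and YY1 letters in 10% and 1.4%. The ERR half-site was in 2.86% and 0.423%, and the E-box in 10% and 7.15%. A match is a description of the letters and no evidence of binding. The windows of 5 members that the results turn on are shown, Cox7a2l because it was called in both genotype comparisons, Uqcrh and Cox8a because they rose in RaptorKO contralateral nerves, Cox5a because its rise after crush was the largest called in both genotypes, and Uqcrc1 as an example of a window with NRF1 letters. Capitals mark the letters of a motif. Uqcrh and Cox8a hold ETS letters and Uqcrc1 holds NRF1 letters, on one or both strands. The windows of Cox7a2l and Cox5a hold none of the 5 motifs. Among members with a window that rose after crush in both genotypes, Ndufa1, Ndufa4, and Cox7b also hold none. Of the others, Atp5g3 holds E-box and ERR half-site letters, Sdhb ETS letters, Sdhd ETS and ERR half-site letters, and Uqcrc1 NRF1 letters. The RefSeq start of Cox7a2l lies inside the GENCODE gene.
Cox7a2l, chr17:83514284-83514583, minus strand: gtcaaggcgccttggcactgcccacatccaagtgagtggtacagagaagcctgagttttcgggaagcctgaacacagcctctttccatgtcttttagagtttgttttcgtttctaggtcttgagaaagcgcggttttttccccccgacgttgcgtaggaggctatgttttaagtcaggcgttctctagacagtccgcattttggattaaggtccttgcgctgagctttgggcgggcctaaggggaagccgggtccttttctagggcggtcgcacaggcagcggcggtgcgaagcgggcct
Uqcrh, chr4:116075021-116075320, minus strand: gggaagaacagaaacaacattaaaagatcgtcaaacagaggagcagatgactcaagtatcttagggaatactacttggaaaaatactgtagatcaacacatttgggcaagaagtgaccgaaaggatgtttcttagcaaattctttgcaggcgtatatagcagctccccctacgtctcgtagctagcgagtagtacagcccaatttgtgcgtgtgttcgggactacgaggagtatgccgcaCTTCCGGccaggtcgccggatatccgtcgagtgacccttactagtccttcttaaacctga
Cox8a, chr19:7217567-7217866, minus strand: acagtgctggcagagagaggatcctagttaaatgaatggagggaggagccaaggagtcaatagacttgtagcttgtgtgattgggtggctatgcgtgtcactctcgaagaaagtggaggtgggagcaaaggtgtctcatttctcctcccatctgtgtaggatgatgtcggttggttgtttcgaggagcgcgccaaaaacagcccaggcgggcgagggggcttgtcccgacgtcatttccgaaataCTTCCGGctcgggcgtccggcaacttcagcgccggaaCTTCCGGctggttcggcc
Cox5a, chr9:57520982-57521281, plus strand: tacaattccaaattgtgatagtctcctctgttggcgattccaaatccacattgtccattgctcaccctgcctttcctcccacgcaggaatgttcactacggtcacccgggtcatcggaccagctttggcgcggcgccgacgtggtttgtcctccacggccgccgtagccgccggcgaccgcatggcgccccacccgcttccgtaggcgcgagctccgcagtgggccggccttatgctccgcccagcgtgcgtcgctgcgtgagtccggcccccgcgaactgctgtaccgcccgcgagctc
Uqcrc1, chr9:108936398-108936697, plus strand: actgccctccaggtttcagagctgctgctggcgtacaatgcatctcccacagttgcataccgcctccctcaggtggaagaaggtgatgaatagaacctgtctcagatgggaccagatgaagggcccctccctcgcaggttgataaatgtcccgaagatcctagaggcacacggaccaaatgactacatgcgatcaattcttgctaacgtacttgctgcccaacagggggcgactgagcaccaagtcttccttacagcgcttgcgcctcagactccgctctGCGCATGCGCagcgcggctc

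The mitochondrial members that fell were 3 complex I subunits and cytochrome b. mt-Nd2 stood at 5877, 5961, and 6108 CPM in control contralateral libraries and at 4741, 4165, 4649, and 4140 CPM in RaptorKO contralateral libraries. All RaptorKO values lay below all control values. The log2 fold change was -0.42 (SE 0.079, edgeR adjusted p = 0.00859). mt-Nd4l fell by 0.38 (adjusted p = 0.0136), mt-Nd4 by 0.33 (adjusted p = 0.0449), and mt-Cytb by 0.28 (adjusted p = 0.0475, all by edgeR's quasi-likelihood test). The others ranged from -0.27 for mt-Atp6 to -0.02 for mt-Co1, the catalytic subunit of complex IV. Between them lay mt-Nd6 at -0.26, mt-Nd1 at -0.24, mt-Co2 at -0.22, mt-Nd3 at -0.21, mt-Atp8 at -0.19, mt-Nd5 at -0.18, and mt-Co3 at -0.15. mt-Co1 stood at 23416, 26557, and 25036 CPM in the control libraries. The RaptorKO libraries held 23766, 22233, 22710, and 28613 CPM and overlapped them.

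These calls also moved with single libraries. mt-Nd2 lost its call without control contralateral 2 or control contralateral 3, and mt-Cytb without any one of 6 of the 7 libraries. The number of mitochondrial members called was 0 without control contralateral 2, 1 without control contralateral 1 or control contralateral 3, and 2 without RaptorKO contralateral 1 or RaptorKO contralateral 2. It was 1 when all 13 libraries shared a fit. The median of the mitochondrial members stayed between -0.30 and -0.21 when any single contralateral library was left out.

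**Figure D2:**
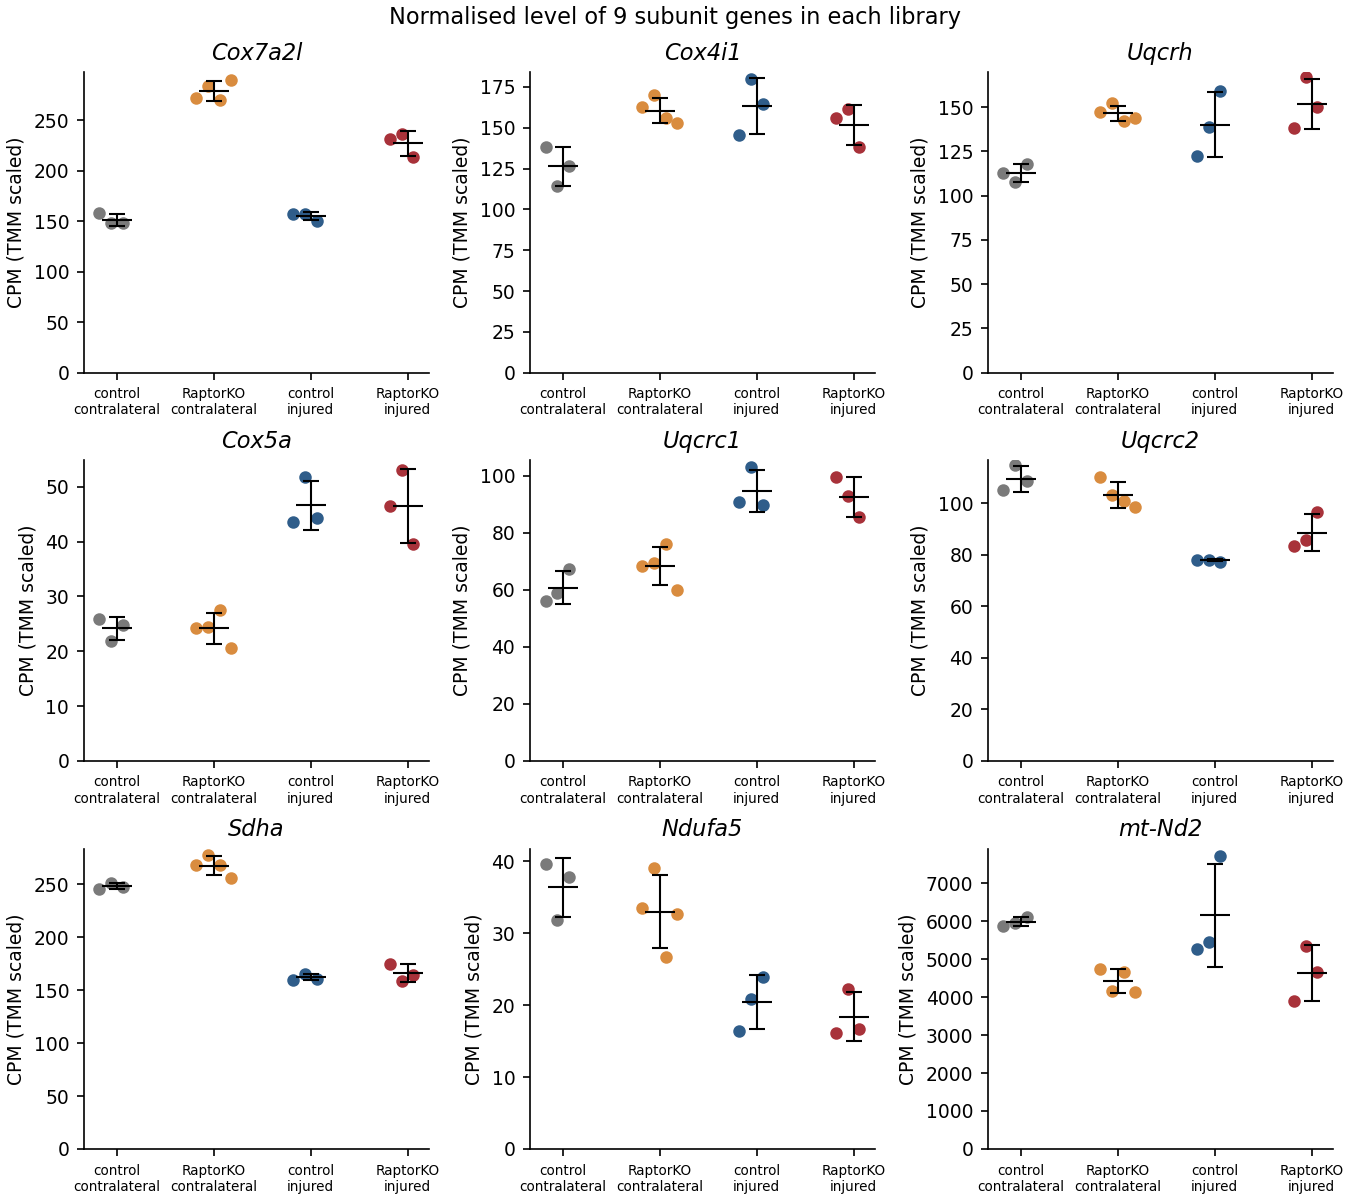
TMM-scaled CPM of 9 members in each of the 13 libraries, with the mean and SD of each group and the vertical axes starting at 0. Cox7a2l is higher in all RaptorKO libraries than in all control libraries on both sides, Cox5a and Uqcrc1 are higher in all injured libraries than in all contralateral ones, and Sdha and Uqcrc2 are lower in all injured libraries.

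In injured nerves at 5 dpc, the comparison of the genotypes gave few differences. Of 76 nuclear members tested, 1 rose and 0 fell in RaptorKO nerves, beside 4.09% of all 12040 genes tested called higher and 4.44% called lower. None of the 13 mitochondrial members was called by edgeR's quasi-likelihood test, and 3 of them and 5 nuclear members had an unadjusted p below 0.05. Of all 12040 genes tested, 2594 did. The medians were -0.06 for nuclear and -0.21 for mitochondrial members on the log2 scale, beside 0.00 over all genes tested. The nuclear median became 0.015 without RaptorKO injured 3, and the mitochondrial median became -0.014 without control injured 3. In the same nerves all 5 proliferation markers and 2 of 10 SC markers were called lower and all 6 endothelial markers higher in RaptorKOs. Proliferation markers summed to 642 to 712 CPM against 1177 to 1319 CPM in controls, SC markers to 2702 to 3294 CPM against 3632 to 4469 CPM, and endothelial markers to 406 to 643 CPM against 227 to 339 CPM. The part of these cells in the values of the members was not tested.

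The member called was again Cox7a2l. It stood at 158, 157, and 150 CPM in control injured libraries and at 232, 236, and 214 CPM in RaptorKO injured libraries, with no overlap. The log2 fold change was 0.57 (SE 0.1, edgeR adjusted p = 0.00595), and it was called in all 13 alternatives with values from 0.53 to 0.61. Its 2 genotype comparisons share no library. Same-numbered nerves were taken to come from the same mouse, so the 2 comparisons are not independent.

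A pair of members with low counts lay far from 0 without passing. Ndufa4l2, a paralog of Ndufa4 known as a hypoxia-induced gene, stood at 4.93, 6.33, and 5.38 CPM in control injured libraries and at 8.8, 15.5, and 8.23 CPM in RaptorKO injured libraries. Its log2 fold change was 0.99 (edgeR adjusted p = 0.0626), and DESeq2, the exact test of edgeR, the fit with no count filter, the fit over 13 libraries, and the fit without RaptorKO injured 3 called it. mt-Nd6 stood at 18.9, 12.9, and 12 CPM in control injured libraries and at 9.95, 8.88, and 5.49 CPM in RaptorKO injured libraries, a log2 fold change of -0.83 (adjusted p = 0.0795, same test). DESeq2, the exact test, the fit with no count filter, and the fit over 13 libraries called it. In both cases the groups did not overlap. Ndufa4l2 is also expressed by pericytes and vascular smooth muscle, and the 8 markers of these cells summed to 860 to 1196 CPM in RaptorKO injured nerves against 457 to 553 CPM in control injured nerves, with 6 of 7 tested called higher and none at 0. Its part in the Ndufa4l2 values was not tested.

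Crush injury changed more members. In control nerves, 28 of 78 nuclear members rose and 9 fell 5 days after crush. As shares these are 35.9% and 11.5%, beside 32.4% of all 12430 genes tested called higher and 32.9% called lower, so the share that rose was near that of all genes and the share that fell was below it. The median of the nuclear members was 0.21 on the log2 scale, beside 0.00 over all genes. Of the mitochondrial members, 2 rose and 0 fell, with a median of 0.15 that became -0.089 without control injured 3. In RaptorKO nerves, 13 of 77 nuclear members rose and 11 fell, beside 30.5% called higher and 28.5% called lower of all 12515 genes tested, and the median was 0.04 beside 0.03. With the mouse as a block, which leaves RaptorKO contralateral 4 without weight, the median was -0.022. Of the mitochondrial members 3 rose and 0 fell there, with a median of 0.16.

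The 2 injury comparisons use different libraries. All 13 nuclear members that rose in RaptorKO nerves also rose in controls, where they make 46.4% of the 28 that rose. Of those that fell, 7 were shared, which is 77.8% of the 9 in controls and 63.6% of the 11 in RaptorKOs. The same shares over all genes were not counted, so these overlaps are not set apart from those of other genes. In the same nerves all 10 SC markers fell and all 10 macrophage markers rose in controls, and 9 of each list did so in RaptorKOs. The 5 proliferation markers rose in both. The part of these cell types in the changes of the members was not tested.

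**Figure D3:**
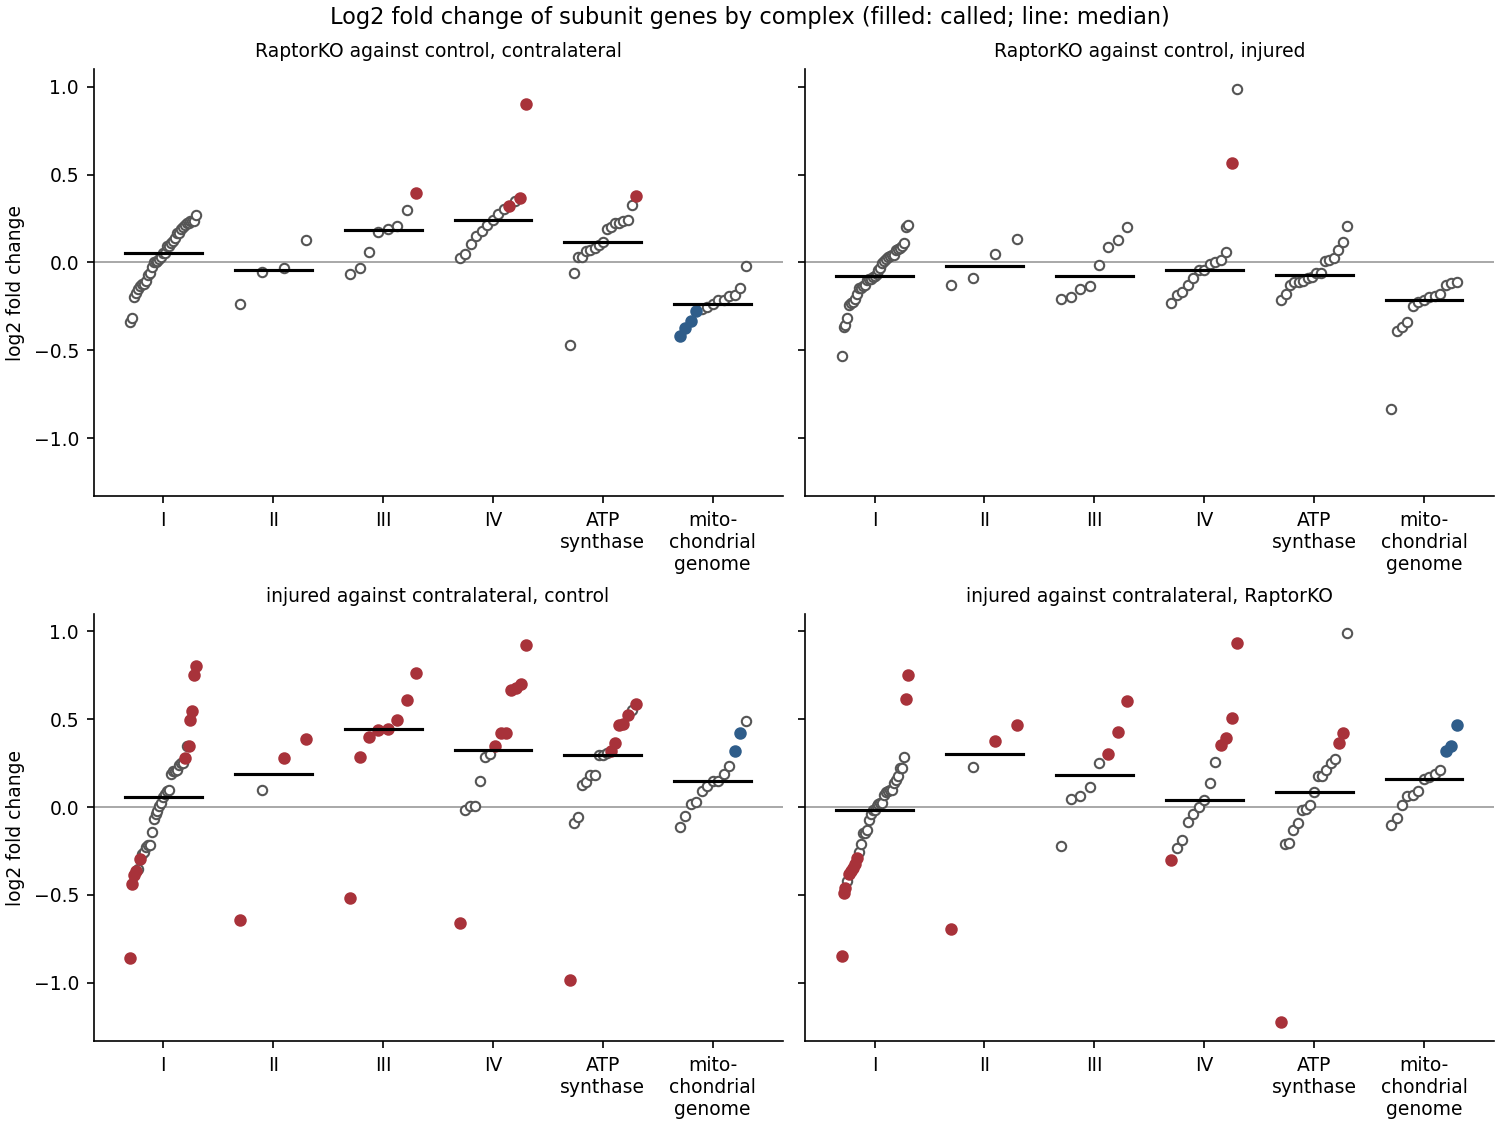
Log2 fold change of every tested member in the 4 comparisons, grouped by complex for nuclear members and together for mitochondrial members, with filled points for called members and a line at the median of each set. Complex III has 7 of 8 nuclear members called higher after crush in controls, and the mitochondrial members lie below 0 in both genotype comparisons.

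Among complex III genes, in controls 7 of its 8 nuclear members rose after crush and 1 fell. As shares these are 87.5% and 12.5%, beside 32.4% and 32.9% of all genes tested. Uqcrc1, one of its core proteins, stood at 56.1, 58.9, and 67.3 CPM in control contralateral and 90.7, 103, and 89.7 CPM in control injured libraries, and the groups did not overlap. Its log2 fold change was 0.61 (SE 0.1, edgeR adjusted p = 0.000183). Uqcrq rose by 0.76 (adjusted p = 0.000592) and Uqcrfs1, the Rieske iron-sulfur protein, by 0.44 (adjusted p = 0.0211, same test), a call lost without control contralateral 1, control contralateral 2, or control injured 3. Uqcrc2, the other core protein, fell by 0.52 (adjusted p = 0.000129, same test), from 109 ± 4.92 to 77.8 ± 0.429 CPM (SD, n = 3 each). In RaptorKO nerves 3 of the 8 rose (37.5%, beside 30.5% of all genes tested) and 0 fell. Uqcrc2 had a log2 fold change of -0.22 there (adjusted p = 0.0581, same test).

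Complex IV subunits rose in part. Cox5a, a nuclear subunit on the matrix side, had the largest rise of the members in controls and in RaptorKOs among those called. It stood at 25.9, 21.9, and 24.7 CPM in control contralateral and 43.7, 51.8, and 44.3 CPM in control injured libraries. In RaptorKOs it stood at 24.3, 24.4, 27.5, and 20.6 CPM in contralateral and 46.6, 53.1, and 39.6 CPM in injured libraries. The groups were apart in both genotypes, with log2 fold changes of 0.92 (SE 0.128, adjusted p = 5.13e-05) and 0.93 (SE 0.142, edgeR adjusted p = 0.000226). Ndufa4 also rose in both, by 0.70 and 0.51, and its paralog Ndufa4l2 fell by 0.66 in controls (adjusted p = 0.0316, edgeR), a call lost without control contralateral 2, control contralateral 3, control injured 1, or control injured 3, and had a value of 0.00 in RaptorKOs. Cox6b1 rose by 0.68 in controls (adjusted p = 5.01e-05, edgeR) and had a value of 0.26 in RaptorKOs, where its adjusted p was 0.0497 by edgeR but its fold change lay under the threshold of 1.2. Cox7a2l had 0.01 in controls and fell by 0.30 in RaptorKOs (adjusted p = 0.0103, edgeR). In all, 7 of 14 members rose and 1 fell in controls, and 4 of 13 rose and 1 fell in RaptorKOs. In controls these are 50% and 7.14%, beside 32.4% and 32.9% of all genes tested. In RaptorKOs they are 30.8% and 7.69%, beside 30.5% and 28.5%.

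The isoform pairs of complex IV and the ATP synthase differed in abundance. Cox7a1, the muscle-type isoform, had 6.91 CPM per kilobase in control contralateral nerves, against 46.7 CPM per kilobase for Cox7a2, its counterpart in other tissues. The summed CPM of 12 skeletal muscle markers was 3.73 to 30.2, with Myh1 at 0 in all libraries, and that of 7 adipocyte markers ran from 0 to 787. The adipocyte sum was 787 in RaptorKO contralateral 3, 193 in control contralateral 3, and 94.7 in control injured 3. It was 57.6 in control contralateral 1, 45.3 in RaptorKO contralateral 1, and at most 0.55 in every other library. Among the 3 genes for subunit c of the ATP synthase ring, which encode the same mature protein, Atp5g3 rose in controls by 0.53 (adjusted p = 0.000892) and in RaptorKOs by 0.37 (adjusted p = 0.0318, both by edgeR's quasi-likelihood test). The RaptorKO call of Atp5g3 was lost without RaptorKO contralateral 1, RaptorKO contralateral 4, RaptorKO injured 1, or RaptorKO injured 2, and with the mouse as a block, where its value was 0.27. Atp5g1 had -0.06 and -0.13 in the 2 genotypes. Atp5g2 stood between 2.29 and 15.4 CPM and did not pass in any comparison, but in RaptorKOs it was called higher after crush with the mouse as a block, with a value of 1.09. Cox7a2 had 0.30 after crush in controls without passing, and was called with the block at 0.31.

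Complex II split. Sdha, the flavoprotein that oxidizes succinate, stood at 246, 252, and 248 CPM in control contralateral and 160, 166, and 161 CPM in control injured libraries. In RaptorKOs it stood at 269, 278, 269, and 256 CPM in contralateral and 175, 159, and 165 CPM in injured libraries. It was lower in every injured library than in every contralateral one, and fell by 0.64 (SE 0.086, adjusted p = 3.89e-05) and 0.69 (SE 0.084, edgeR adjusted p = 4.4e-05). Sdhb, the iron-sulfur subunit, rose by 0.39 and 0.37, and the membrane anchor Sdhd rose by 0.28 and 0.47. The other anchor, Sdhc, had 0.10 and 0.23 and did not pass. In controls both calls of Sdhb and Sdhd were lost without control contralateral 1 or control contralateral 2, that of Sdhb without control injured 3, and that of Sdhd without control contralateral 3 or control injured 2. In RaptorKOs that of Sdhb was lost without RaptorKO contralateral 1, RaptorKO contralateral 4, RaptorKO injured 1, or RaptorKO injured 3. With the mouse as a block the calls of Sdhd in controls and Sdhb in RaptorKOs were lost, at 0.28 and 0.26.

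Complex I was mixed. In controls 6 of its 35 nuclear members rose and 5 fell, and in RaptorKOs 2 rose and 8 fell. As shares, 17.1% rose and 14.3% fell in controls, beside 32.4% and 32.9% of all genes tested. In RaptorKOs these were 5.71% and 22.9%, beside 30.5% and 28.5%. Ndufa1, an accessory subunit, rose by 0.80 in controls (SE 0.141, edgeR adjusted p = 0.000328) and by 0.75 in RaptorKOs (SE 0.184, edgeR adjusted p = 0.00499). Ndufa5, another accessory subunit, stood at 39.6, 31.8, and 37.9 CPM in control contralateral and 16.4, 20.8, and 24 CPM in control injured libraries, without overlap. It fell by 0.86 (SE 0.163, adjusted p = 0.000587) and by 0.85 (SE 0.172, edgeR adjusted p = 0.00162). Ndufa13, Ndufb4, Ndufb9, and Ndufv2 fell in both genotypes as well, and in RaptorKOs Ndufa13 fell by 0.49 and lost its call without RaptorKO contralateral 1, RaptorKO contralateral 2, RaptorKO injured 1, or RaptorKO injured 3. Ndufb10 fell by 0.46 in RaptorKOs (edgeR adjusted p = 0.00586) and had -0.26 in controls, where it did not pass. The core subunits Ndufs1 and Ndufv1 had 0.10 and -0.04 in controls and -0.02 and -0.07 in RaptorKOs and passed in neither. Of the ATP synthase, 6 of 17 nuclear members (35.3%) rose in controls and 2 (11.8%) in RaptorKOs. Atp5s alone fell, by 0.99 in controls and 1.22 in RaptorKOs. In controls its groups overlapped and its call was lost without either library numbered 1 or 2 of either side.

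Among the mitochondrial members mt-Nd1 rose in both genotypes after crush. It stood at 7241, 8567, and 7879 CPM in control contralateral and 8855, 9849, and 13555 CPM in control injured libraries, a log2 fold change of 0.42 (edgeR adjusted p = 0.0165). In RaptorKOs the values were 6987, 6208, 6390, and 6847 CPM in contralateral and 7972, 10346, and 9214 CPM in injured libraries, a log2 fold change of 0.47 (adjusted p = 0.00319, same test). mt-Nd5 rose in controls only by the test, by 0.32, and mt-Nd3 and mt-Nd4l in RaptorKOs, by 0.35 and 0.32. The difference between the genotypes did not pass for any of these. The control calls of mt-Nd1 and mt-Nd5 were both lost without control injured 3, control contralateral 1, or control contralateral 3, and that of mt-Nd5 also without control contralateral 2. In RaptorKOs the call of mt-Nd4l was lost without any one of 6 of the 7 libraries, and that of mt-Nd3 without RaptorKO contralateral 2, RaptorKO contralateral 3, or RaptorKO injured 2. The number of mitochondrial members called in controls was 7 without control injured 1, 1 without control contralateral 2, and 0 without control contralateral 1 or control contralateral 3. In RaptorKOs it was 1 without RaptorKO contralateral 2, RaptorKO contralateral 3, or RaptorKO injured 2.

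Single libraries also moved the nuclear counts. In controls the number that rose was 18 without control contralateral 2, and the number that fell was 4 without control injured 1. In RaptorKOs the number that fell was 6 without RaptorKO contralateral 2 or RaptorKO injured 3 and 7 without RaptorKO contralateral 1 or RaptorKO injured 1. With both control libraries numbered 3 left out, an alternative chosen after seeing the data, 26 nuclear members rose and 6 fell in controls and the mitochondrial median was -0.081.

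Whether the change after crush depends on Rptor was asked of the genotype by injury interaction, fitted over 13 libraries. None of the 91 members was called by edgeR's quasi-likelihood test, beside 1.41% of 12851 genes called lower and 1.07% called higher. By an unadjusted p below 0.05, 11 of 78 nuclear and 0 of 13 mitochondrial members passed, beside 1827 of all 12851 genes tested. The nuclear share was near that of all genes. DESeq2 called 2 members, Cox7a2l and Cox4i1. The estimate was below 0, a smaller rise or larger fall in RaptorKO, for 67 of 78 nuclear members, which is 85.9% beside 51.3% of all genes tested. It equals the genotype difference in injured nerves minus that in contralateral nerves, so it reuses the libraries of both genotype comparisons. The median was -0.18 for nuclear and 0.02 for mitochondrial members. For complex IV, 13 of 14 nuclear members lay below 0, with a median of -0.33. The number below 0 was 53 without control injured 3 and 54 with both control libraries numbered 3 left out.

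The 5 members with the smallest p in the interaction were Cox4i1, Cox6b1, Cox7a2l, Cox5b, and Atp5h. Cox4i1 stood at 145, 180, and 165 CPM in control injured and 156, 161, and 138 CPM in RaptorKO injured libraries, beside the contralateral values given above. Of the 4 groups the control contralateral one was the lowest. Its interaction was -0.45 on the log2 scale (SE 0.138, edgeR adjusted p = 0.114). Those of Cox6b1, Cox5b, and Atp5h were -0.44, -0.40, and -0.37, with adjusted p of 0.12, 0.166, and 0.208 in the same test. That of Cox7a2l was -0.33 (adjusted p = 0.14, same test).

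**Figure D4:**
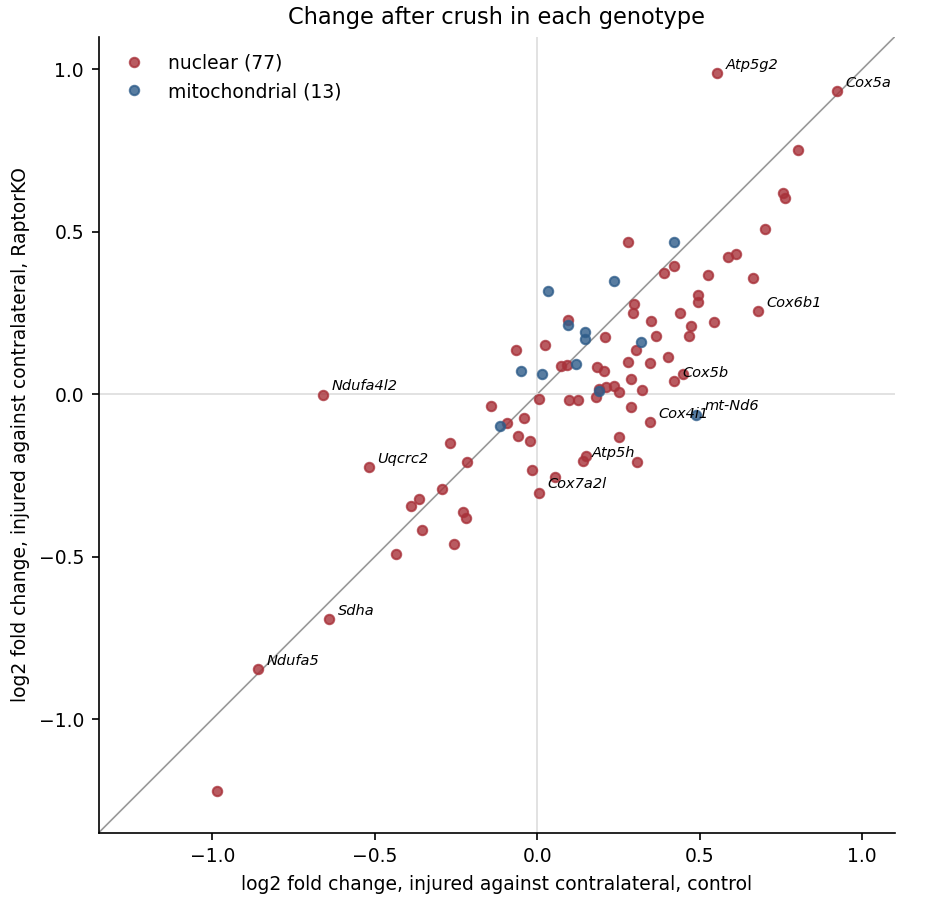
Log2 fold change of injured against contralateral nerves in control (horizontal) and RaptorKO (vertical) for the 77 nuclear and 13 mitochondrial members tested in both, with the line of equal change. Of the nuclear members 60 lie below the line, and Cox5a, Sdha, and Ndufa5 lie close to it.

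Genes that serve the same complexes were read from 4 lists. Among all genes tested, 32.4% rose and 32.9% fell after crush in controls, and 30.5% and 28.5% in RaptorKOs. Between the genotypes, 4.49% were called higher and 5.68% lower in contralateral nerves, and 4.09% and 4.44% in injured nerves. An unadjusted p below 0.05 was held by 2955 of 11878 genes tested in contralateral nerves and 2594 of 12040 in injured nerves. Of 42 assembly factors tested in each genotype comparison, 0 were called by edgeR's quasi-likelihood test, and 4 in contralateral and 3 in injured nerves had an unadjusted p below 0.05. After crush 4 rose and 5 fell of 44 tested in controls, and 3 rose and 7 fell of 42 in RaptorKOs. As shares these are 9.09% and 11.4%, and 7.14% and 16.7%, below those of all genes tested. Surf1, an assembly factor of complex IV, fell in both, by 1.29 (adjusted p = 7.05e-06) and 0.99 (adjusted p = 0.000215, edgeR). Coa5 fell by 0.47 and 0.45, Uqcc1 fell by 0.79 and 0.64, and Pet100 rose by 0.55 and 0.93.

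Of the regulators of mitochondrial gene expression and biogenesis, 1 rose in each genotype comparison and 0 fell, of 24 tested in each. The share that rose was 4.17%, near the 4.49% and 4.09% of all genes tested. The gene was Pprc1, a coactivator of the PGC-1 family known to act with NRF1. It had 27.7 ± 2.08 CPM in control contralateral (SD, n = 3) and 41.7 ± 5.44 CPM in RaptorKO contralateral nerves (SD, n = 4), a log2 fold change of 0.61 (edgeR adjusted p = 0.0144). In injured nerves it had 47.5 ± 5.4 and 65.1 ± 4.42 CPM (SD, n = 3 each), higher by 0.47 on the log2 scale in RaptorKOs (adjusted p = 0.0317, same test). After crush it rose by 0.75 in controls and 0.64 in RaptorKOs. In controls 3 of 23 rose (13%) and 2 fell (8.7%), below the shares of all genes tested. Among them Esrra, an orphan nuclear receptor of respiratory genes, fell by 0.83 and Tfb2m, a mitochondrial transcription factor, rose by 0.65. In RaptorKOs 2 of 25 rose (8%) and 1 fell (4%), also below those shares. These genes were Pprc1 and Gabpa, which rose by 0.50, and Twnk, which fell by 0.39.

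Of 17 genes of pyruvate dehydrogenase and the citric acid cycle, 0 were called in either genotype comparison by edgeR's quasi-likelihood test, and 4 in contralateral and 0 in injured nerves had an unadjusted p below 0.05. After crush 3 rose and 1 fell in controls, and 2 rose and 1 fell in RaptorKOs. As shares these are 17.65% and 5.88%, and 11.8% and 5.88%, below those of all genes tested. Citrate synthase, Cs, rose by 0.50 (adjusted p = 0.000436) and 0.42 (adjusted p = 0.000932, both by edgeR's quasi-likelihood test), and Dlst rose by 0.60 and 0.54. Suclg2 fell by 0.54 in controls and Dld by 0.30 in RaptorKOs.

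Of 20 electron carriers and carriers of the inner and outer membrane, 7 rose and 3 fell in controls after crush, and 8 rose and 4 fell in RaptorKOs. In controls these are 35% and 15%, beside 32.4% and 32.9% of all genes tested. In RaptorKOs they are 40% and 20%, beside 30.5% and 28.5%. The adenine nucleotide translocases, which exchange ATP for ADP, went opposite ways. Slc25a4 fell by 0.63 and 0.59 (adjusted p = 0.000108 and 0.00172, edgeR's quasi-likelihood test), and Slc25a5 rose by 1.06 and 1.37 (adjusted p = 1.55e-06 and 2.61e-05, same test). Vdac1 rose by 0.87 in controls and 0.71 in RaptorKOs, and Coq8a fell by 1.67 in controls and 1.92 in RaptorKOs. Between the genotypes, 1 of 20 was called in contralateral nerves (5% lower, beside 5.68% of all genes tested) and 0 in injured nerves, where 1 had an unadjusted p below 0.05. The gene was Ucp2, a carrier of the inner membrane related to the uncoupling protein of brown fat. It stood at 412, 379, and 351 CPM in control contralateral and 187, 205, 168, and 175 CPM in RaptorKO contralateral libraries, without overlap. Its log2 fold change was -1.03 (SE 0.092, edgeR adjusted p = 0.000109). In injured nerves it stood at 554, 704, and 467 CPM in control and 537, 470, and 516 CPM in RaptorKO libraries, and these groups overlapped.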

How the data were processed

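Total RNA of sciatic nerves was sequenced by the authors in 13 libraries, and reads were trimmed with Trimmomatic and quantified per gene with RSEM 1.2.22 on GRCm38. The authors deposited expected counts per gene, not normalized. Reads matching several genes were divided among them by RSEM. Whether strand was used in counting is not given in the sources used here. The counts were rounded to whole numbers and scaled with TMM factors. Totals of 8200458 to 13581775 counts per library set the precision, which is low for members under about 10 CPM.

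Groups came from the sample labels. Crush was unilateral, so same-numbered nerves of a genotype were taken as pairs from 1 mouse. The correlations of their deviations from the group means were 0.0674, 0.129, and 0.305 in controls and -0.0239, 0.211, and 0.168 in RaptorKOs. Same-numbered nerves of different genotypes, which are different mice, had 0.0724, 0.254, and 0.301 on the contralateral side. On the injured side they had 0.0267, 0.0137, and -0.0495. The correlations therefore do not by themselves show the pairing. The reported fits have no block, and the blocked value is given where it changes a call or a direction. The members and the gene lists were chosen with earlier results of these data known. Differential expression was tested over all genes with 50 or more counts in at least 2 libraries of a comparison with edgeR 4.0.16 (quasi-likelihood test, R 4.3.3) and Benjamini-Hochberg adjustment, and called at adjusted p below 0.05 and fold change above 1.2. The interaction used all 13 libraries. Named members were the mitochondrial members, the isoform families, complex II, the core subunits, the 5 called nuclear members with the largest change in each direction and comparison, and the 5 with the smallest p in the interaction. A member that the rule would name is not reported here but stays in the counts and medians. Other genes were named as examples after their values were seen. Of each list the 3 called genes with the smallest p were eligible. Alternatives were DESeq2 1.42.0, the exact test of edgeR (used by the authors), RLE size factors, leaving out the mitochondrial genome, no count filter, 1 fit over 13 libraries, a replicate block, and leaving out each library. Leaving out both control libraries numbered 3, and counting interaction estimates below 0 under each alternative, were chosen after seeing the data. The tests were checked on simulated counts. Gene positions and exon lengths came from GENCODE M21 and promoters from RefSeq (GRCm38.p6). Figures were drawn with matplotlib 3.10.9.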

Additional observations from a re-analysis of the deposited data

Results flagged for a closer look

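The gap was examined in 91 members and 4 passed. Cox6a1, Atp5s, and Atp5g2 are among them and had a RaptorKO contralateral library far from the other 3 of its group, with a gap that is large for the range of the group (Dixon's 95% critical value for 4 libraries). RaptorKO contralateral 2 was the highest for Cox6a1 (gap 0.966), RaptorKO contralateral 3 the lowest for Atp5s (gap 0.912), and RaptorKO contralateral 1 the highest for Atp5g2 (gap 0.88). Chance gives such a gap in about 1 of 20 groups, and the other groups have 3 libraries and were not examined.

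The effect of crush on Ucp2 differed between the genotypes, with an interaction log2 value of 0.87 (SE 0.181, edgeR adjusted p = 0.0216 over 13 libraries). Ucp2 rose after crush by 0.57 in controls and by 1.46 in RaptorKOs. Over 20 settings, the reported one included, 15 called the interaction, with adjusted p from 0.000355 to 0.0638. It was not called without control injured 1, RaptorKO injured 1, control contralateral 1, or control contralateral 2, nor with both control libraries numbered 3 left out. Macrophages are known to express Ucp2, and their markers rose after crush in both genotypes. In contralateral nerves Ucp2 was lower in RaptorKOs, whereas 6 of 9 macrophage markers tested were called higher there and 0 lower. The part of macrophages in the Ucp2 values was not tested.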

How the results depend on the processing

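In contralateral nerves the number of nuclear members called higher in RaptorKO was 5 as reported, 9 with the replicate block, and 1 to 8 when single libraries were left out, and the mitochondrial number was 4 as reported, 1 in the fit over 13 libraries, and 0 to 5 without single libraries. In injured nerves the nuclear number higher was 2 with DESeq2, the exact test, the fit over 13 libraries, or no count filter, and 1 to 2 without single libraries. The mitochondrial number was 1 with the first 3 of these and 2 with no count filter, and 0 without any single library. The medians there ran from -0.129 to 0.015 for nuclear and -0.364 to -0.014 for mitochondrial members without single libraries. After crush in controls, 18 to 36 nuclear members rose and 4 to 10 fell without single libraries. The mitochondrial number was 1 in the fit over 13 libraries, 0 in the exact test, and 0 to 7 without single libraries, with medians of -0.089 to 0.297 and of -0.081 with both control libraries numbered 3 left out. In RaptorKOs 10 to 15 rose and 6 to 10 fell without single libraries, 6 fell with no count filter, and the nuclear median was -0.022 with the replicate block and -0.011 to 0.118 without single libraries. The mitochondrial number was 1 in the fit over 13 libraries and 1 to 3 without single libraries. In the interaction DESeq2 called 2 members. The cause of these changes was not tested. Medians in contralateral nerves kept their sign in all alternatives. The named members gave 155 results, each a single member in 1 comparison. Of their 2081 values under the alternatives, 1943 stayed on the same side of the threshold, 102 lost a call, 36 gained one, and no called value changed sign.

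With the replicate block the injury comparisons lost the calls of Sdhd in controls and of Atp5g3 and Sdhb in RaptorKOs and gained those of Cox7a2 in controls and Atp5g2 in RaptorKOs, and no other named member changed its call in them. Equal numbers in different genotypes are different mice, so the block on the genotype comparisons shares only a number. In contralateral nerves it also called mt-Atp6 lower, at -0.26. The interaction stayed at 0 calls with the block.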
